A study of Mus musculus with 6 samples.

Results

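The mRNAs of the translation initiation factors (gene symbols Eif) and elongation factors (Eef) were measured in acinar cells of the mouse pancreas, which secrete digestive enzymes. Members were chosen by name: of 55367 gene symbols in the count tables, 85 begin with Eif or Eef and a digit, and 63 of these remained after leaving out 13 pseudogene symbols, 4 eIF2 kinase genes and 5 symbols of eEF1A methyltransferases. All 6 libraries belong to 1 group, GFP-positive acinar cells sorted from the pancreas of untreated mice carrying Pdx1-Cre and Klf5-mCherry-CreERT2, with 300 cells per library. Pdx1 is active in the pancreatic lineage, which includes islet and duct cells, and the genotype label names no GFP reporter. Ages are not given, and nothing says whether the libraries come from separate animals, so a p-value here reflects the spread among these libraries, which may be technical.

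Total counts were 4670819 to 7072270 per library, of which ribosomal RNA took 38.2% to 60.9%. The names of the libraries carry a number, not explained in the labels, that is shared by replicates 1 to 3 (set A) and differs in replicates 4 to 6 (set B). Counts cover whole gene spans, introns included, and a background was read from 1765 olfactory and vomeronasal receptor genes. It was 26.6 to 39.1 counts per Mb of span in set A, and 52.8, 327 and 111 in replicates 4, 5 and 6, so replicate 5 stands apart. All 8 listed acinar markers were present, and their summed level was 260500 to 297600 TPM (here counts divided by summed exon length and scaled to the same total in each library, ribosomal RNA included) in set A and 98300 to 156500 in set B. The 5 islet markers summed to 8.90 to 39.4 TPM in set A and 35.9 to 2224 in set B, and the duct, fibroblast, endothelial and leukocyte lists stayed at or under 15.3 TPM in every library, and 2 erythroid markers at or under 30.0.

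Protein synthesis starts when eIF2, carrying the initiator tRNA, joins the small ribosomal subunit with eIF1, eIF1A, eIF3 and eIF5, and the eIF4F complex brings that subunit to the capped 5′ end of an mRNA. After eIF5B has joined the subunits, eEF1A delivers aminoacyl-tRNAs, its exchange factor eEF1B recharges it with GTP, eEF2 moves the ribosome along, and eIF5A helps at slow peptide bonds. Acinar cells are known for one of the highest rates of protein synthesis of any cell, and in the pancreas phosphorylation of eIF2 and of the eIF4E-binding proteins is a known control of that rate.

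The translation factors together took 0.0848% (exact Clopper-Pearson 95% interval 0.0822% to 0.0875%) of all counts in replicate 5 and 0.172% (0.169% to 0.176%) in replicate 2, which were the lowest and highest libraries. Of counts outside ribosomal RNA their share was 0.217% in replicate 5 and 0.274% to 0.313% in the others. At least 1 TPM on average was found for 49 of the 63 genes, or 77.8%, against 32.2% of 21949 protein-coding nuclear genes. A mean of 10 TPM or more was found for 15 genes, or 23.8%, against 3.02%. Counts were above 0 in every library for 50 of the 63 genes, against 11516 of the 21949. Counts exceeded 3 times the expected background in every library for 39 genes, or 61.9%, against 12.3% of protein-coding nuclear genes. No level can be read for 5 members, Eif3m, Eif2s2, Eif4e3, Eif4enif1 and Eif4ebp3, which had no counts and lie with all their exons inside another gene. Exons of Eif3j1, Eif3d, Eif2d, Eef2kmt and Eif5b lie inside other genes for 54.0%, 47.6%, 46.6%, 33.8% and 28.65% of their bases.

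**Figure D1:**
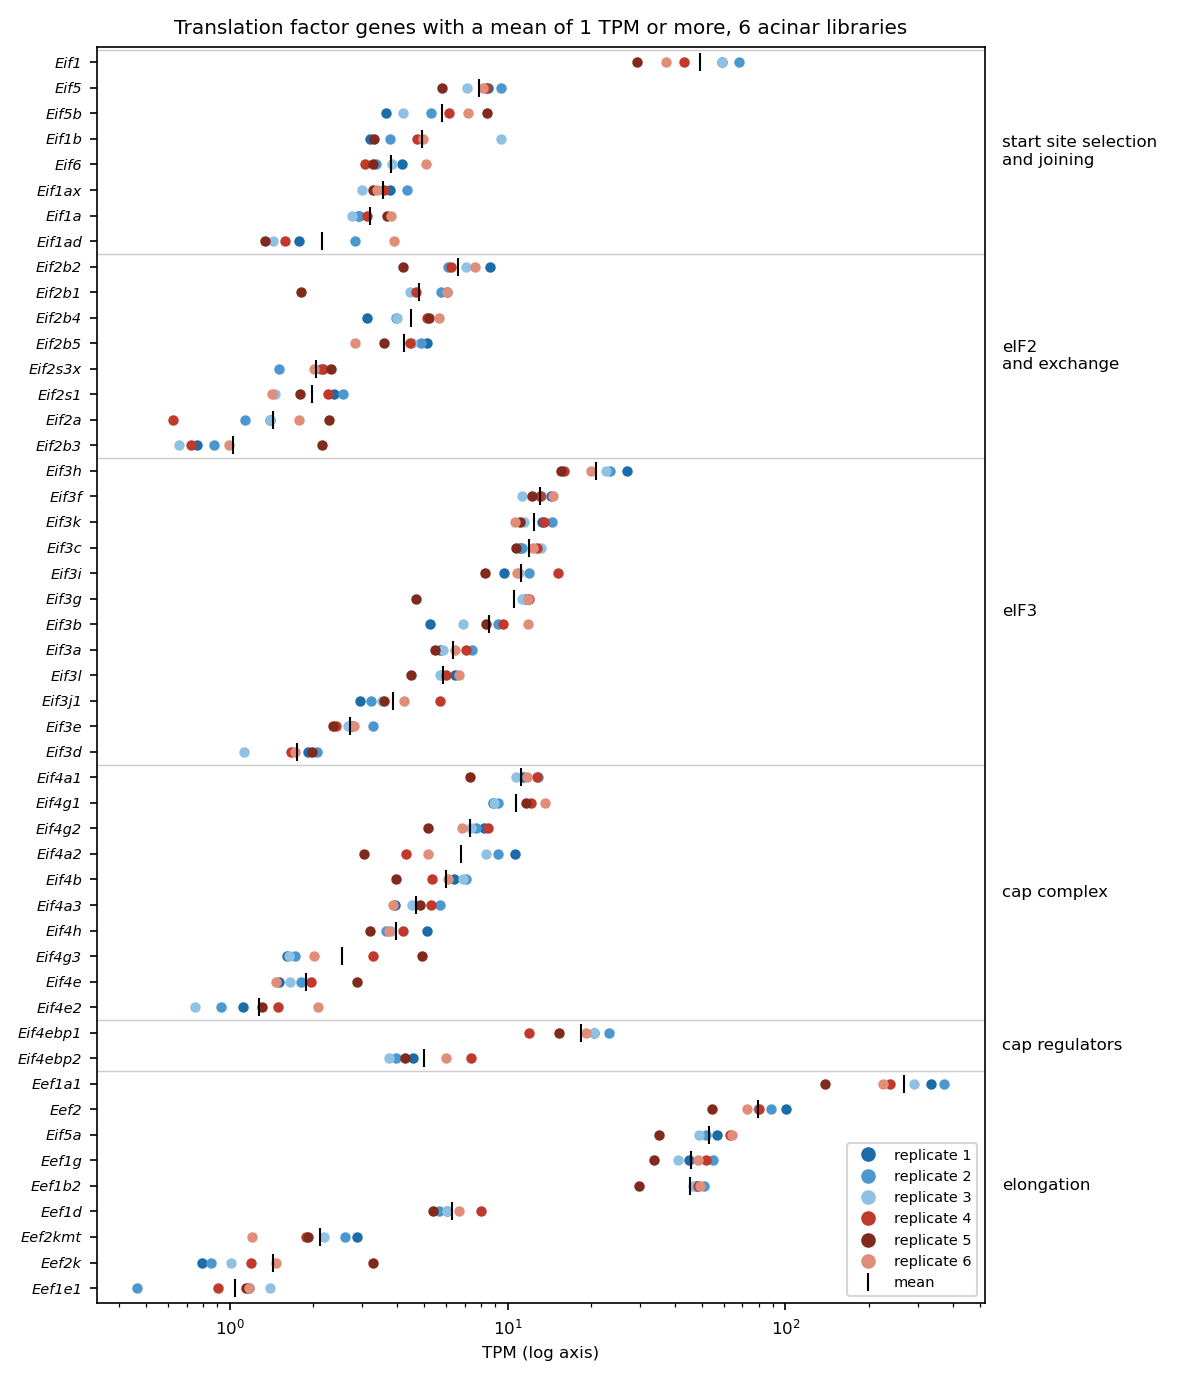
TPM on a log axis of the 49 members averaging at least 1 TPM, grouped by role, with 1 point per library (blue, set A; red, set B) and a black tick at the mean of 6. Elongation factor genes and Eif1 sit furthest to the right, led by Eef1a1 at 266 TPM, and replicate 5 is often the lowest of the abundant genes.

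Elongation factors led the group. The 11 genes of this role took 62.8% of the summed TPM of all members, from 55.9% to 65.5% over the libraries, while eIF3 took 13.6% and the cap complex 7.07%. Eef1a1, which encodes the ubiquitous eEF1A (chromosome 9, 78478449 to 78489151, build mm10), had 334, 373, 289, 237, 139 and 225 TPM in replicates 1 to 6. Its mean was 266 ± 83.9 TPM (SD, n = 6), all 3 libraries of set A lay above those of set B, and it ranked 39 to 64 among protein-coding genes. Eef2, the translocase gene (chromosome 10, 81176631 to 81182498), had 100.3, 88.9, 79.6, 80.3, 54.2 and 72.8 TPM, and replicate 5 was lowest here too. Eif5a, whose product carries the hypusine modification, had 56.5, 51.7, 48.7, 63.3, 35.1 and 64.3 TPM. The structural eEF1B subunit gene Eef1g had 44.9, 55.0, 40.9, 51.9, 33.7 and 48.5 TPM. Eef1b2, a nucleotide exchange subunit, had 47.6, 51.1, 46.6, 48.5, 29.8 and 49.3 TPM, so 5 libraries lay close together and replicate 5 below them. Eef1d, the other exchange subunit, was lower, with 6.05, 5.68, 6.05, 8.01, 5.39 and 6.70 TPM, and highest in replicate 4.

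The rest of the elongation genes were near the lower end. Eef1e1, a scaffold protein of the tRNA synthetase complex despite its symbol, had 1.04 ± 0.323 TPM. It had 5 to 17 counts per library, and expected background equalled 60.7% of them in replicate 5. Eef2k, the kinase that inhibits eEF2, had 0.791, 0.857, 1.01, 1.195, 3.27 and 1.47 TPM. Its high value lies in replicate 5, where expected background equalled 40.6% of its counts. The eEF2 methyltransferase gene Eef2kmt had 2.11 ± 0.587 TPM. Eef1a2, the muscle and neuron form of eEF1A, had 0 to 5 counts per library, with expected background equal to 54.65% of them in total. Eif5a2, the second eIF5A gene, had 0 to 4, and its expected background exceeded its counts.

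Genes of start site selection were led by Eif1, whose product guards the fidelity of the start codon, with 59.0, 67.8, 59.3, 43.2, 29.3 and 37.1 TPM. Set A lay above set B without overlap. Eif5, the activating protein of the eIF2 GTPase, had 8.53, 9.48, 7.12, 8.35, 5.81 and 8.13 TPM. Eif5b, the subunit joining GTPase, had 3.65, 5.30, 4.21, 6.14, 8.41 and 7.19 TPM. All of set B lay above set A for Eif5b on this scale, and replicate 5, its highest library, was the lowest for Eif5. Eif1b, a close relative of Eif1, had 3.21, 3.76, 9.49, 4.72, 3.31 and 4.96 TPM. Eif6, which keeps the large subunit from joining early, had 3.80 ± 0.757 TPM and Eif1a 3.20 ± 0.442. Eif1ax had 3.77, 4.36, 2.99, 3.59, 3.27 and 3.40 TPM, with the sets overlapping. Eif1a and Eif1ax encode nearly the same protein, and the counting of reads that fit both is not given in the sources used here. Eif1ad was lowest of the 8, with 1.78, 2.81, 1.43, 1.59, 1.34 and 3.89 TPM.

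For eIF2, the carrier of the initiator tRNA, Eif2s1 (alpha) had 2.37, 2.56, 1.46, 2.27, 1.79 and 1.42 TPM, and Eif2s3x (gamma) had 2.13, 1.51, 2.17, 2.17, 2.32 and 2.002 TPM. Neither showed a separation of the sets. The Y-linked copy Eif2s3y had 0 to 6 counts per library and an expected background of 76.3% of its counts. Subunits of eIF2B, which reloads eIF2 with GTP, ranged from Eif2b3 at 1.03 ± 0.560 TPM to Eif2b2 at 6.65 ± 1.51, a ratio of 6.48. Expected background made up 31.7% of the counts of Eif2b3 overall and 74.0% in replicate 5. The other initiator tRNA carriers Eif2a and Eif2d had 1.44 ± 0.562 and 0.961 ± 0.188 TPM. In replicate 5 expected background equalled 34.5% of the counts of Eif2a and 86.7% of those of Eif2d. Eif2c5 stands in the group by its symbol alone, since Eif2c is an older name of the Argonaute genes, and it had 0 to 2 counts per library.

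The eIF3 complex is the scaffold on the small subunit. Its 12 readable genes other than Eif3j2 ranged from Eif3d at 1.74 ± 0.337 TPM to Eif3h at 20.8 ± 4.44 TPM, with a median of 9.53. Eif3h had 26.9, 23.4, 22.7, 15.9, 15.6 and 20.03 TPM, with set A above set B. Its span is 78966 bp for 1612 bp of exon, and expected background equalled 47.8% of its counts in replicate 5. By span length Eif3h was the lowest of the 12, at 0.652 TPM, and Eif3g the highest. Eif3f had 14.3, 13.2, 11.3, 13.1, 12.3 and 14.6 TPM, with no separation of the sets. Eif3k had 13.3, 14.5, 11.5, 13.6, 11.1 and 10.7 TPM. Eif3c, a subunit of the complex's core, had 11.1, 11.3, 13.2, 12.8, 10.8 and 12.3 TPM. Eif3i had 9.68, 11.9, 11.0, 15.2, 8.31 and 10.8 TPM. By the longest coding transcript in place of all exons, Eif3k and Eif3i stood at 33.0 TPM each, so the order inside eIF3 depends on which length is used. Eif3g had 11.3 to 11.9 TPM in 5 libraries and 4.696 in replicate 5. Eif3a, the largest subunit, had 5.71, 7.44, 5.87, 7.07, 5.50 and 6.45 TPM. Eif3b, which binds it, had 5.26, 9.21, 6.94, 9.62, 8.35 and 11.8 TPM. Eif3j1, a loosely bound subunit, had 2.94, 3.21, 3.52, 5.72, 3.595 and 4.23 TPM. Set B lay above set A for Eif3j1 by TPM, and the sets overlapped for Eif3a and Eif3b. A set B wholly above set A by TPM was found for 33.3% of all genes tested, and by TMM-scaled CPM the sets overlapped for Eif3j1, Eif5b, Eif4g1, Eif4g3 and Eif4e2. Eif3d, a subunit that can itself bind the cap, had 1.91, 2.07, 1.13, 1.66, 1.97 and 1.71 TPM.

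In the cap complex, Eif4a1, the main RNA helicase, had 11.3, 12.9, 10.7, 12.7, 7.31 and 11.8 TPM. Eif4g1, the scaffold of eIF4F, had 8.86, 9.23, 8.95, 12.1, 11.6 and 13.6 TPM, with every library of set B above every library of set A on this scale. Eif4a2, the second helicase gene, had 10.6, 9.23, 8.35, 4.31, 3.05 and 5.17 TPM, with the sets separated in the opposite direction. Eif4g2, the DAP5 form of the scaffold, which lacks the eIF4E-binding site, had 8.25, 7.70, 7.37, 8.48, 5.18 and 6.84 TPM. Eif4g3 had 1.61, 1.72, 1.64, 3.28, 4.93 and 2.02 TPM, with set B above set A and expected background equal to 60.2% of its counts in replicate 5. Eif4e, the cap-binding protein, had 1.501, 1.81, 1.64, 1.97, 2.87 and 1.47 TPM, the highest again in replicate 5, and its relative Eif4e2 had 1.11, 0.927, 0.747, 1.496, 1.31 and 2.08 TPM. The helicase partner Eif4b had 6.41, 7.1, 6.93, 5.35, 3.96 and 6.11 TPM, with set A above set B, and the other partner, Eif4h, had 5.12, 3.65, 3.80, 4.201, 3.19 and 3.75 TPM, with the sets overlapping. Eif4a3, the helicase of the exon junction complex, had 3.93, 5.70, 4.53, 5.29, 4.83 and 3.87 TPM. The oocyte gene Eif4e1b had 1 count in all, and the Eif4a3 copies Eif4a3l2 and Eif4a3l1 had 3 and 0.

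Eif4ebp1, the eIF4E-binding repressor that mTORC1 inactivates, had 20.4, 23.3, 20.4, 12.0, 15.3 and 19.1 TPM. At a mean of 18.4 ± 4.09 it stood above Eif4a1, the highest cap complex gene, by summed exon length. By span length it had 3.79 TPM against 13.2 for Eif4a1, and by the longest coding transcript 18.1 against 24.4. Eif4ebp2, a second such repressor, had 4.56, 3.97, 3.74, 7.40, 4.27 and 5.99 TPM, with its highest libraries in set B.

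Neighbours in the order were often not separable. Eef1a1 exceeded Eef2 by 1.69 ± 0.25 log2 units (SD, n = 6) and Eef2 exceeded Eif5a by 0.57 ± 0.26, each in 6 of 6 libraries. From Eif5a to Eif1, Eef1g and Eef1b2 each step was smaller than its SD, with 3 of 6 libraries in either direction. A gap of 1.10 ± 0.27 parted Eef1b2 from Eif3h in 6 of 6 libraries. From Eif3f to Eif3k, Eif3c, Eif3i and Eif4a1 the steps were again within their SD.

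The spread between libraries was smaller for these genes than for all genes, which were not matched to them for level. Over the 50 members that passed the filter on low counts, the median coefficient of variation of TPM was 0.208, against 0.392 for all 8723 genes that passed it. Without replicate 5 the values were 0.177 and 0.302. Eif3c (0.0851) and Eif3f (0.0953) varied least among those 50, and Eef2k (0.652) and Eif2b3 (0.546) most. Genes with few counts vary more by counting alone, and the spans of Eef2k (64620 bp) and Eif2b3 (67905 bp) hold 19.4% and 31.7% of expected background in their counts.

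The annotated starts were examined because many translation factor mRNAs are known to begin with a terminal oligopyrimidine tract, a C followed by pyrimidines, through which mTORC1 and Larp1 control their translation. RefSeq promoter windows (GRCm38.p6, 250 bases before to 50 after the start) were found for 48 of the 63 genes. At the annotated start itself a C followed by at least 4 pyrimidines was present in 3 of 48 genes (6.25%), of which 1 is the noncoding Eif2c5, and in 3.01% of 27025 genes in the table. Within 10 bases on either side it was present in 16 of 48 (33.3%) and in 34.4% of all genes, so the wider window did not set the members apart. Since annotated starts can lie some bases from the used one, a missing match says nothing of the mRNA. Eif3f and Eif2s3x carried such a start, shown here because each has 11 pyrimidines in a row from the annotated start on, in capitals, with 20 bases on either side of the start. In both the pyrimidines go on before the start, so the capitals mark only the part from the start.
Eif3f (chr7:108934395-108934434, + strand): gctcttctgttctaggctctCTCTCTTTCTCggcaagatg
Eif2s3x (chrX:94212632-94212671, - strand): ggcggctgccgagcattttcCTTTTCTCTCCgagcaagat

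The letters CCGGAAG on either strand, the core bound by ETS family factors such as GABP, were found in the windows of 16 of 48 members (33.3%). The same letters were found in 9.93% of all 27025 genes, 13.2% of 16786 protein-coding genes and 20.5% of 6886 genes that passed the count filter. This motif was looked for after the sequences had been read, the other strand (CTTCCGG) overlaps the pyrimidine pattern, and the shares carry no test. Of the 13 members with these letters that were tested between the library sets, 10 lay lower in set B with a median log2 difference of -0.47, and of the 27 without them 22 did, with a median of -0.58. The 5 genes printed next carry the letters, in capitals, beginning 2, 6, 2, -55 and -34 bases from an annotated start, in the order given, and Eif5a has other annotated starts as well.
Eef1b2 (chr1:63176820-63176850, + strand): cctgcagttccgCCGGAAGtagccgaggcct
Eif4e2 (chr1:87213904-87213934, + strand): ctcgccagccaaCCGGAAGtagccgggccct
Eif2b4 (chr5:31193120-31193150, - strand): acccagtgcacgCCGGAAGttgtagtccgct
Eif5a (chr11:69920667-69920697, - strand): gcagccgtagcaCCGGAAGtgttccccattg
Eif3c (chr7:126566382-126566412, - strand): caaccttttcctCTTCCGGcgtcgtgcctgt

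Paralogs and subunits were compared within each library, to ask which form dominates in acinar cells. Of 22 chosen pairs, 4 hold a gene inside another gene and are not read. Of the other 18, 15 passed a two-sided exact test that flips the signs of the 6 differences (64 patterns), all with the first gene higher in 6 of 6 libraries (exact p = 0.031, the smallest that 6 libraries allow; adjusted p = 0.036 by Benjamini-Hochberg over 22 pairs). The 22 include the 4 pairs not read, each with a gene without counts. Over the 18 alone 15 passed, with a smallest adjusted exact p of 0.0375. The pairs were chosen with earlier results of these data known, so the p-values give no independent support. Values are differences in log2(TPM + 1), which understate the difference where one gene is near 0.

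The widely expressed elongation genes exceeded their second copies. Eef1a1 exceeded Eef1a2 by 7.67 ± 0.90 (SD, n = 6), from 6.05 in replicate 5 to 8.55 in replicate 2, and Eif5a exceeded Eif5a2 by 5.65 ± 0.31. Eif1 exceeded its relative Eif1b by 3.11 ± 0.59. It exceeded Eif1ax, which encodes the separate factor eIF1A, by 3.41 ± 0.41. Eif3j1 exceeded its single-exon copy Eif3j2, with 0 to 2 counts per library, by 2.13 ± 0.22, and Eif2s3x exceeded Eif2s3y by 1.37 ± 0.20. In these last 2 pairs reads of near-identical copies could be split between the genes. Eif2s3y lies on the Y chromosome, the sex of the mice is not stated here, and expected background equalled 76.3% of its counts. The pair of Eif2s3x and Eif2s3y is therefore not read as dominance of a form.

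Among the helicases Eif4a1 exceeded Eif4a2 by 0.72 ± 0.50, from 0.08 in replicate 1 to 1.37 in replicate 4. Within set A the difference was 0.28 ± 0.18 (SD, n = 3) and within set B 1.15 ± 0.19, with no overlap. Eif4a1 exceeded Eif4a3 by 1.08 ± 0.31. The difference from Eif4a2 did not pass without length scaling (0.49, adjusted exact p = 0.14) or with exon length outside other genes (0.62, adjusted exact p = 0.069). Among the scaffolds Eif4g1 exceeded Eif4g3 by 1.79 ± 0.40, and Eif4g2 by 0.50 ± 0.38, although by span length the latter was -0.53 (adjusted exact p = 0.069) and without length scaling 0.073 (adjusted exact p = 0.75). Within sets A and B the difference from Eif4g2 was 0.19 ± 0.09 and 0.80 ± 0.29. Eif4ebp1 exceeded Eif4ebp2 by 1.70 ± 0.60, with 2.14 ± 0.17 within set A and 1.26 ± 0.55 within set B. This pair did not pass by span length (0.76, adjusted exact p = 0.069) or without length scaling (0.47, adjusted exact p = 0.14). In eEF1B, Eef1g and Eef1b2 exceeded Eef1d by 2.67 ± 0.22 and 2.66 ± 0.25. The size of these 2 differences depended on length, though both still passed. They were 2.06 and 1.95 with the longest coding transcript, 1.72 and 3.25 by span length, and 1.49 and 1.44 without length scaling. Eif4b exceeded Eif4h by 0.49 ± 0.25, which was -0.19 with the longest coding transcript (adjusted exact p = 0.21), 0.026 by span length (adjusted exact p = 0.79) and 0.25 without length scaling (adjusted exact p = 0.081).

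The other 3 pairs did not pass. Eif4e minus Eif4e2 was 0.34 ± 0.38 (higher in 5 of 6, adjusted exact p = 0.13), Eif5 minus Eif5b was 0.41 ± 0.53 (5 of 6, adjusted exact p = 0.13) and Eif3a minus Eif3b was -0.35 ± 0.30 (lower in 5 of 6, adjusted exact p = 0.069). By span length Eif3a instead exceeded Eif3b by 0.47 (adjusted exact p = 0.038) and Eif5 exceeded Eif5b by 2.06 (adjusted exact p = 0.038), so no order is read for these genes. In each of the 18 pairs the mean difference had the same sign within set A and within set B. Its size moved with the sets in 10 pairs, where set B lay wholly over set A in 3 and wholly under it in 7, so the SD over 6 libraries holds a difference between the sets as well. No share over other gene pairs was taken, so this count is not read as particular to these pairs. Those of Eef1a1 with Eef1a2 and Eif3j1 with Eif3j2 include a gene near 0.

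**Figure D2:**
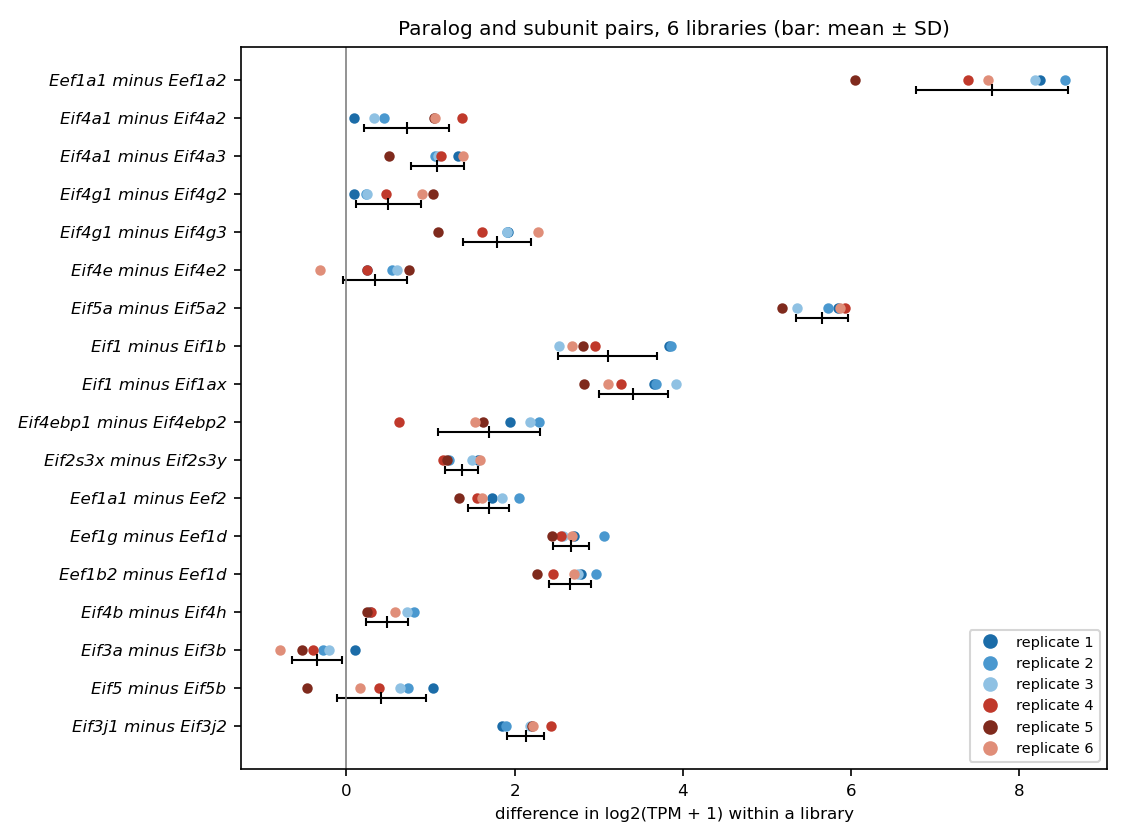
Difference in log2(TPM + 1) within each library for the 18 readable pairs, 1 point per library (blue, set A; red, set B), with the mean ± SD under the points. All 6 points lie to the right of 0 for 15 pairs, from Eif4b minus Eif4h at 0.49 to Eef1a1 minus Eef1a2 at 7.67.

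Sets A and B carry the same labels and were compared as a possible batch. With edgeR's quasi-likelihood test on all genes, with TMM scaling, 0 of the 50 members tested passed at an adjusted p under 0.05, where 0.0115% of the 8723 genes tested were called higher in set B and 0% lower. At an unadjusted p under 0.05, 11 members lay lower in set B and 0 higher, against 9.76% and 16.1% of all genes. DESeq2 called 5 members lower and 0 higher, against 2.6% and 9.1% of all genes. These were Eef1a1, Eif1, Eif3h, Eif4a2 and Eif4ebp1. With no filter on low counts edgeR called 2, Eif1 and Eif4a2, against 0.682% of all genes.

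On the scale of that test (CPM with TMM factors), Eif4a2 had 38.7, 31.0, 28.6, 12.1, 5.80 and 13.8 in replicates 1 to 6, a log2 difference of -1.63 (SE 0.34, edgeR adjusted p = 0.087). Eif1 had 84.4, 89.5, 79.8, 47.5, 21.9 and 39.0, a difference of -1.23 (SE 0.31, edgeR adjusted p = 0.089). Eef1a1 had 567.5, 585, 463, 310, 123.5 and 281, a difference of -1.18 (SE 0.37, edgeR adjusted p = 0.097). For all 3 genes set B lay below set A without overlap, and replicate 5 was lowest. Eef2kmt at -1.13 (SE 0.37) and Eif3h at -0.99 (SE 0.29) followed. At the other end stood Eef2k at 0.54 (SE 0.34), Eif4g3 at 0.47 (SE 0.29), Eif4e2 at 0.33 (SE 0.38), Eif5b at 0.20 (SE 0.24) and Eif2b3 at 0.13 (SE 0.38), none past the test, with overlapping sets. Without replicate 5, edgeR called 6 members lower, against 4.07% of all genes, namely Eif4a2 (-1.36, edgeR adjusted p = 4.8e-04), Eif1 (-0.99), Eef1a1 (-0.89), Eif3h (-0.81), Eif4ebp1 (-0.83) and Eef2 (-0.60). Without replicate 4 it called 6 members, against 5.72%, with Eef2kmt and Eif2b5 in place of Eef2 and Eif4ebp1. Without replicate 1, 2, 3 or 6 it called 0 members and 0 of all genes tested, so those fits show nothing particular to the members.

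**Figure D3:**
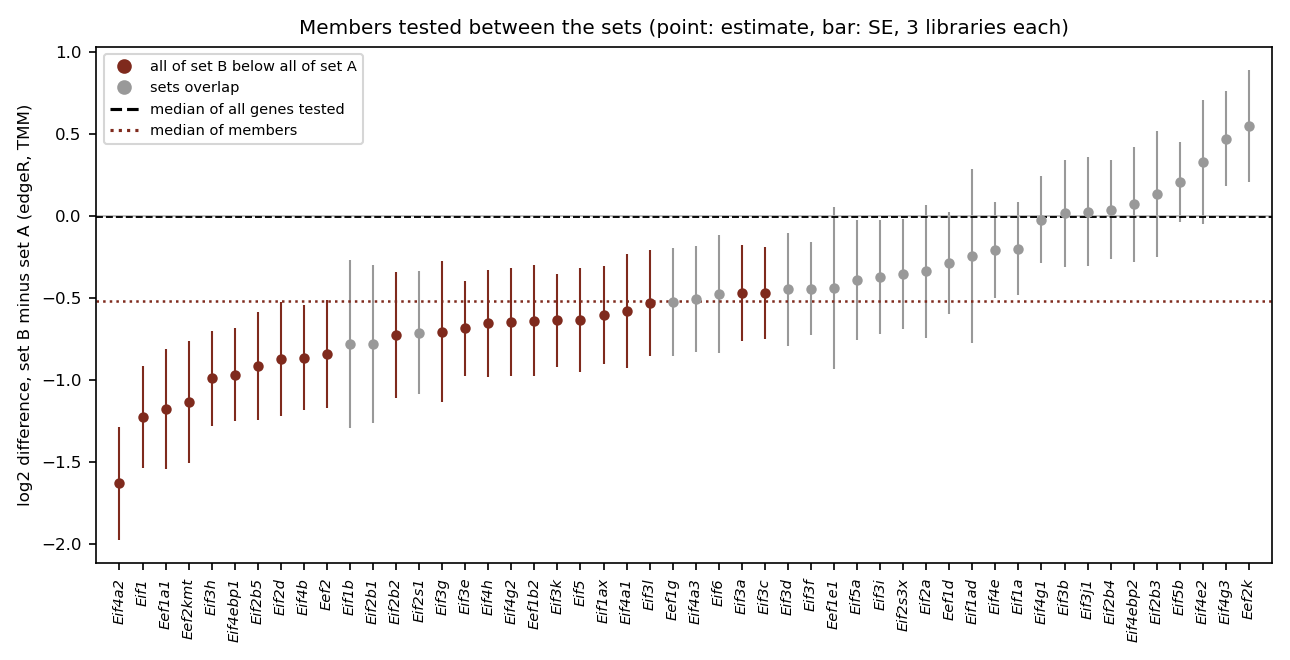
Log2 difference between set B and set A (edgeR with TMM scaling, bar: SE, 3 libraries in each set) for the 50 members tested, in order of size. The points of 23 members whose sets do not overlap are dark red, the dotted line is the median of members at -0.52, and the dashed line the median of all genes tested, close to 0.

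All libraries of set B lay under all of set A for 23 members, or 46.0%, against 17.2% of all genes tested, and over them for 0, against 15.5%. Of the 50 members 41, or 82.0%, had a negative difference, against 50.27% of all genes. The members' median was -0.52 against -0.004 for all genes. The 5 larger roles had negative medians, from -0.71 over 9 genes of eIF2 and its exchange factor to -0.47 over 12 of eIF3. The 2 cap regulators tested differed in sign, with Eif4ebp1 at -0.97 and Eif4ebp2 at 0.069. The sign of this shift depends on the scale. By TPM 26 of the 50 lay lower, by TPM without ribosomal RNA genes only 4, by CPM of all counts 39, and by CPM of counts outside ribosomal RNA genes 15. The median of all genes was 0.53, 1.09, 0.19 and 0.72 in the same order, so these counts move with the scaling. No share of all genes lying lower was taken there, so the counts are not read as particular to the members. Relative to the median of all genes the members' median stood at -0.51 to -0.58 on these 5 scales. Between libraries these scales differ only by a factor shared by all genes, so this distance was nearly fixed. Its likeness over them is no sign of robustness. Complete separation moved in the same way. By TPM 9 members lay wholly under set A, against 5.9% of all genes, and 8 wholly over, against 33.3%. Without ribosomal RNA genes the counts were 1 under, against 1.15%, and 27 over, against 62.5%. By CPM of all counts 18 were under, against 13.4%, and 2 over, against 19%, and outside ribosomal RNA genes 4 were under, against 2.96%, and 11 over, against 44.6%.

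Background moved with the sets, and the distance from other genes was smaller once it was subtracted. By TPM after subtraction of the expected background the members' median was -0.13 and that of all genes 0.047, a distance of -0.17, with 9 members wholly under set A against 8.87% of all genes and 5 wholly over against 10.5%. By TPM without replicate 5 the distance was -0.32, with medians of 0.037 and 0.36, 9 members wholly under against 8.51% and 12 wholly over against 38.5%. The islet marker sum was also higher in set B and the acinar sum lower, and their part in the shift was not tested. Genes followed over the scales include the 5 largest differences in each direction by TMM CPM. As 5 of the 7 scales differ only by a factor per library, likeness of sign over them was largely fixed and is no sign of robustness. Eif4a2, Eif1, Eef1a1 and Eef2kmt lay lower in set B on all 7 scales, from -1.63 to -0.62 for Eif4a2, -1.23 to -0.22 for Eif1 and -1.18 to -0.18 for Eef1a1, and Eif5b, Eif4g3, Eef2k and Eif4e2 lay higher on all 7. Eef2, Eif3h and Eif4ebp1 lay lower on 6 and higher by TPM without ribosomal RNA genes, at 0.18, 0.057 and 0.090, and Eif2b3 was higher on 6 and lower after background subtraction, at -0.18. In bulk libraries such as these, fewer cells of a type and less RNA per cell cannot be told apart.

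**Figure D4:**
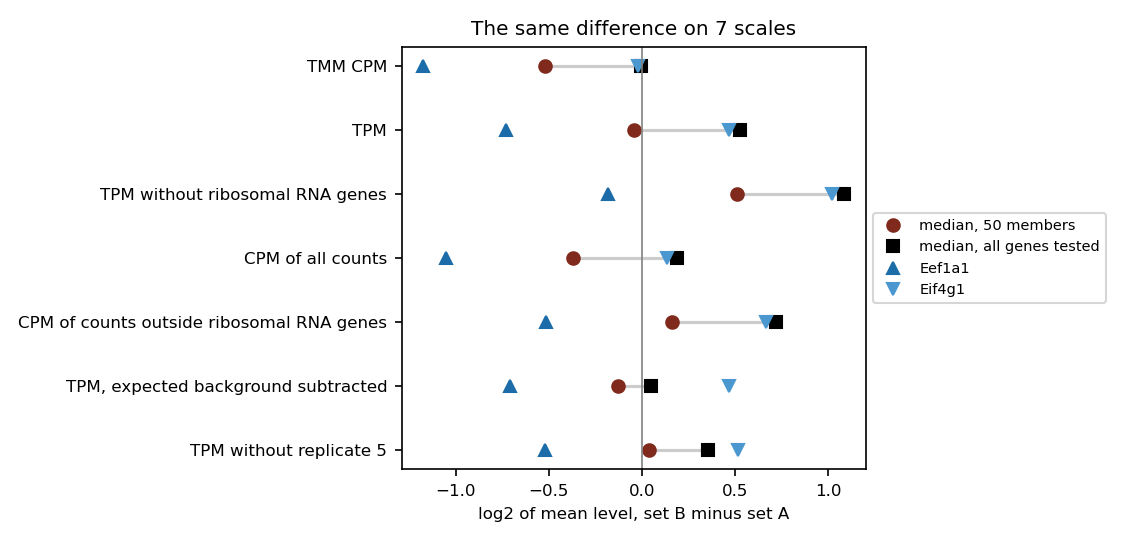
Log2 of the mean level in set B minus that in set A on 7 scales, for the median of the 50 members (circles), the median of all genes tested (squares), Eef1a1 (triangles up) and Eif4g1 (triangles down). The circles move from -0.52 with TMM CPM to 0.51 with TPM without ribosomal RNA genes, and lie to the left of the squares on every scale, by the least after background subtraction. Scales with all libraries and no background subtraction differ only by a factor per library, which leaves that distance nearly fixed.

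Other genes of the pathway, from 44 genes in 6 lists, were measured in the same libraries. At least 1 TPM on average was found for 28 of them, against 32.2% of protein-coding nuclear genes. Of 35 tested between the sets 0 passed edgeR's test, where 0.0115% of all genes were called higher in set B and 0% lower. A negative difference was found for 26 of the 35, against 50.27% of all genes. Among the eIF2 kinases the ER stress kinase gene Eif2ak3 (PERK) stood highest, at 9.48 ± 2.27 TPM (SD, n = 6), with Eif2ak1 at 1.65 ± 0.527, the amino acid sensor Eif2ak4 (GCN2) at 1.46 ± 0.736 and Eif2ak2 at 0.555 ± 0.433. Expected background equalled 26.15%, 24.67% and 33.69% of the counts of Eif2ak1, Eif2ak4 and Eif2ak2, against 3.04% for Eif2ak3. Eif2ak2 had only 1 to 14 counts per library, and 30.7% of the exon bases of Eif2ak1 lie inside other genes. The counterparts of these kinases, the phosphatase subunits Ppp1r15b and Ppp1r15a, had 3.17 ± 1.01 and 1.22 ± 0.440 TPM. The eIF4E kinase gene Mknk1, listed with mTORC1 but not part of it, had 14.5 ± 3.51 TPM. In the same list the mTOR inhibitor gene Deptor had 8.997 ± 0.419 TPM and Mtor itself 1.51 ± 0.486, with expected background equal to 21.7% of the counts of Mtor. Of the poly(A)-binding genes Pabpc4 had 10.7 ± 1.66 TPM and Pabpc1 8.17 ± 2.06, and Larp1, the binding protein of oligopyrimidine starts, 10.1 ± 1.97. The release factor gene Etf1 had 7.94 ± 1.68 TPM, and Gspt1, its GTPase partner, 0.678 ± 0.202 with 67.6% of its exon bases inside another gene. Dhps, which starts the hypusine modification of eIF5A, had 1.005 ± 0.375 TPM, and Tufm, the mitochondrial counterpart of eEF1A, 4.64 ± 1.55.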

How the data were processed

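RNA-seq counts of 6 libraries of sorted mouse acinar cells were used, prepared per the labels by a modified Smart-seq2 protocol with 12 preamplification cycles. Per the submitters' processing notes, the authors used Trim Galore 0.6.4, FastQC, STAR 2.7.9a, SAMtools and featureCounts with build mm10. The authors deposited whole-number counts for each gene symbol, not normalized. For the 55253 symbols given as 1 interval, the Length column spans the interval from first to last base, introns included. The annotation release, strand setting and handling of shared reads are not given in the sources used here.

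Exon lengths from GENCODE M21 (GRCm38) were matched to 55144 of 55367 symbols, holding 99.9977% of counts. TPM used the summed exon length of all transcripts and a total that includes ribosomal RNA. Expected background was the receptor genes' counts per Mb times a gene's span. A gene was called inside another when at least 90% of its exon bases lay in other counted genes. Total counts of 4670819 to 7072270 set the precision, and a count of 0 allows up to 3 counts, or 0.424 to 0.642 CPM. Intervals and floors cover counting error only. Sets A and B were tested by the quasi-likelihood method of edgeR 4.0.16, on genes kept by filterByExpr with TMM factors and Benjamini-Hochberg adjustment over all of them, and by DESeq2 1.42.0, and the edgeR script was tested on simulated data. The pairs were compared with an exact two-sided sign-flip test of log2(TPM + 1) with a threshold of 0.05.

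Members, lists, roles and pairs were chosen with earlier results of these data known. Values per library are given for the 12 most abundant members, the members of pairs and the lowest of a role (by their range of counts where near 0), and between sets for the 5 largest differences in each direction. The scales of the set difference, both other exon lengths and the ETS motif were chosen after seeing the data. Scripts ran in R 4.3.3 and in Python 3.11.15 with pandas 2.3.3, scipy 1.17.1, matplotlib 3.10.9 and numpy 2.4.6.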

Additional observations from a re-analysis of the deposited data

Results flagged for a closer look

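Of 67 values examined over the 6 libraries, 7 had a library far from the other 5. The rate of about 1 in 20 given by chance holds for independent values. These values share the same 6 libraries, so no excess over that rate is read. In 6 of the 7 the far library was replicate 5, the one with the highest background. It was lowest for Eef1b2 at 29.8 TPM (next lowest 46.6), Eif3g at 4.696 (11.3) and Eif2b1 at 1.81 (4.45). It was highest for Eef2k at 3.27 TPM (next highest 1.47), Eif2b3 at 2.14 (0.990) and Eif4e at 2.87 (1.97). Expected background in replicate 5 equalled 74.0% of the counts of Eif2b3, 40.6% of those of Eef2k and 29.6% of those of Eif4e, and its part in the other values was not tested. Eif1b was highest in replicate 3, at 9.49 TPM against 4.96 in the next library, from 40 counts.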

How the results depend on the processing

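Of the 22 pairs 19 passed, and 16 to 19 did so under the 7 other scales and pseudocounts, while of the 18 pairs read 15 passed, and 12 to 15 under those alternatives. Reversed by span length were Eif4g1 minus Eif4g2 (-0.53), Eif4e minus Eif4e2 (-0.023) and Eif3a minus Eif3b (0.47). Reversed without length scaling were Eif3a minus Eif3b (0.94) and Eif5 minus Eif5b (-0.030). Reversed with the longest coding transcript were Eif4e minus Eif4e2 (-0.18), Eif4b minus Eif4h (-0.19) and Eif3a minus Eif3b (0.17). These alternatives change only the length a count is divided by. The median level over the 58 members outside other genes was 4.60 TPM, and 1.67 by span length, 10.1 in CPM, 8.08 without ribosomal RNA genes and 5.71 with the longest coding transcript. The median coefficient of variation, 0.208, was 0.177 to 0.224 with each library left out and 0.259 without ribosomal RNA genes. Between the sets 0 members passed edgeR, 5 passed DESeq2, 2 passed edgeR with no filter on low counts, and 0 to 6 passed with each library left out (6 without replicate 4 and 6 without replicate 5), and the cause was not tested. Members above background were 39, and 34 at 5 times background or 49 without replicate 5. A pyrimidine start was found in 3 genes at the annotated start and in 16 within 10 bases of it. No paired analysis was possible because the labels number the libraries 1 to 6 within 1 group. Depth limits Eef1a2, Eif5a2, Eif2s3y, Eif3j2, Eif2c5, Eif4e1b and the Eif4a3 copies, whose counts are few. Expected background equalled 54.65% or more of the counts of Eef1a2, Eif5a2, Eif2s3y, Eif2c5 and Eif4e1b. It equalled 27.8% of those of Eif3j2 and 26.5% of those of Eif4a3l2.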
